A study of Homo sapiens with 4 samples.

Results

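The genes described here are 10 microRNA genes of blood cells, chosen by name: every line filed under 1 of their symbols was taken from 4 ChIP-seq peak files, which hold 18576 gene symbols in all, 396 of them microRNA symbols. MIR155HG, MIR17HG and MIR150 are best known from lymphocytes, MIR142 from all blood cells, MIR223, MIR146A and MIR21 from myeloid cells, MIR126 from progenitors, and MIR196B and MIR10A lie in the HOX clusters that MLL regulates. In total, 9 of the 10 symbols had a line in at least 1 file, all of them in the H3K4me3 files, and MIR223 had none.

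The study profiled WDR5 (antibody ab56919) and histone H3 trimethylated at lysine 4 (H3K4me3, antibody ab8580) by ChIP-seq in RS4;11 and THP-1 cells. RS4;11 is a line of B-cell precursor acute lymphoblastic leukemia (ALL) and THP-1 a monocytic line of acute myeloid leukemia (AML). Both carry a rearranged MLL gene, no treatment is given for either, and each is 1 line standing for its type of leukemia. Among the labels, the lymphoblastic type stands on the WDR5 sample of THP-1 and the myeloid type on the H3K4me3 sample of RS4;11, so the types used here are those of the paper. There was 1 sample for each antibody and cell line, so the values below have no replicate error and no test, and every comparison is between 2 libraries and not between 2 types of leukemia.

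A microRNA is cut from a hairpin in a longer primary transcript, and the mature strand, held by an Argonaute protein, represses mRNAs that pair with its seed, bases 2 to 8 from the 5′ end. H3K4me3 is deposited by MLL-type methyltransferases, which share the subunit WDR5, and marks the start regions of active or poised genes. For a microRNA inside a host transcript the mark is therefore known to sit at the host's promoter or at a start site of its own, which can lie many kilobases from the hairpin.

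The mature sequences, from RefSeq, show which members can pair with the same targets, with the seed in capitals. In the MIR17HG cluster, miR-17-5p and miR-20a-5p share the seed AAAGUGC, miR-19a-3p and miR-19b-3p share GUGCAAA, and miR-18a-5p and miR-92a-3p stand alone.
miR-17-5p: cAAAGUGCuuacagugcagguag
miR-20a-5p: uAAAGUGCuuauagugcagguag
miR-18a-5p: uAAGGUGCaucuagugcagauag
miR-19a-3p: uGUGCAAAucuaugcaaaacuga
miR-19b-3p: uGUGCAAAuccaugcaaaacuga
miR-92a-3p: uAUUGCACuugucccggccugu

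Each of the other mature strands has a seed of its own, also in capitals.
miR-155-5p: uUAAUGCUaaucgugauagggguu
miR-142-5p: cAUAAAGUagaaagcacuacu
miR-142-3p: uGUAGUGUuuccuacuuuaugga
miR-223-3p: uGUCAGUUugucaaauacccca
miR-146a-5p: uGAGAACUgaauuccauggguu
miR-21-5p: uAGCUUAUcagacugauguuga
miR-126-3p: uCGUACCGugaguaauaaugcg
miR-196b-5p: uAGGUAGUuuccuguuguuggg
miR-10a-5p: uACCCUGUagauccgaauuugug

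Each deposited line pairs 1 peak with 1 transcript within 20 kb and gives yes or no flags for upstream, downstream, exon and intron, but no tag count, height or p-value. Depth is therefore unknown, and a width in bp is the only size a peak has. The H3K4me3 files hold 24212 distinct peaks in RS4;11 cells (median width 1391 bp) and 26523 in THP-1 cells (1241 bp), compared to 703 and 225 WDR5 peaks. No H3K4me3 peak was wider than 4478 bp in RS4;11 cells or 4446 bp in THP-1 cells, and the bin of 4000 to 4249 bp still held 347 and 245 peaks. Whether wider peaks were called is not given in the sources used here, so an unlisted gene is not shown to lack the mark. PAX5, a B-lineage factor, was unlisted in RS4;11 cells but had an exonic peak of 4037 bp in THP-1 cells, and RAN was unlisted in THP-1 cells but had an exonic peak of 3849 bp in RS4;11 cells. These 2 genes were chosen after their values were seen. Listing did not separate the lines by cell type, since 14 of 14 myeloid marker genes and 9 of 11 B-lymphoid ones were listed in each, near the share of all symbols (87.9% and 93.9%). Exonic peaks were present for 7 myeloid markers in RS4;11 and 9 in THP-1 cells, and for 4 and 6 B-lymphoid markers. Of 4 T-lymphoid markers, 3 had one in RS4;11 and 0 in THP-1 cells, and of 3 erythroid markers 0 in each. The share of all symbols with an exonic peak was not computed. The wider exonic peak was in THP-1 cells for 8 myeloid markers and in RS4;11 cells for 3, and for the B-lymphoid markers in RS4;11 for 4 and in THP-1 for 3. No share over all genes was computed for these width counts either, so they are not shown to follow cell type. VPREB1, a defining gene of precursor B cells, was listed in neither line.

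**Figure D1:**
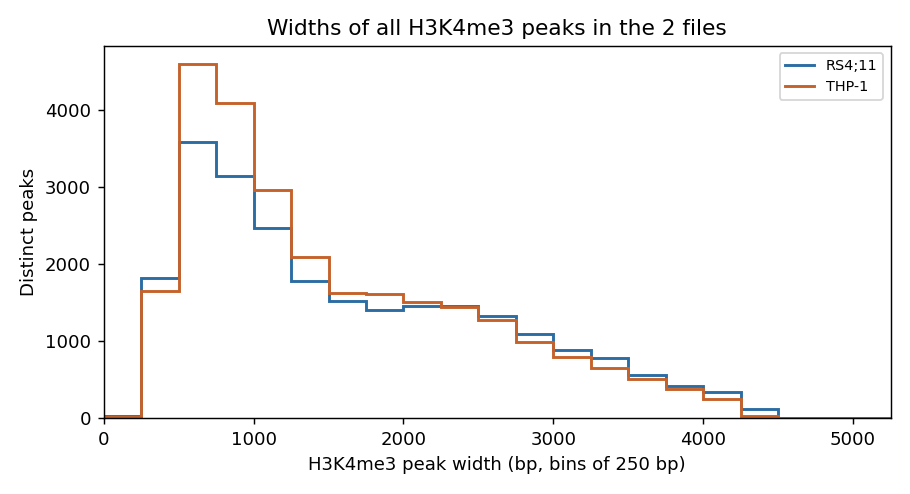
Number of distinct H3K4me3 peaks (y axis) by peak width in bins of 250 bp (x axis), with 1 line for each cell line. Both distributions end below 4500 bp, with 118 RS4;11 and 32 THP-1 peaks in the last filled bin.

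H3K4me3 was listed for 7 of the 10 microRNA genes in RS4;11 and for 7 in THP-1 cells. MIR150, MIR142, MIR21, MIR126 and MIR10A had peaks in both lines, MIR155HG and MIR146A in RS4;11 cells only, MIR17HG and MIR196B in THP-1 cells only, and MIR223 in neither. Of all symbols in the files, 87.9% were listed in RS4;11, 93.9% in THP-1 and 82.2% in both, while 5.67% were listed in RS4;11 cells only and 11.7% in THP-1 cells only. That background is high by construction, since a symbol enters it by being listed somewhere, while MIR223, listed nowhere, stays among the 10. Of the 396 microRNA symbols alone, 77% were listed in RS4;11, 81.3% in THP-1 and 60.4% in both. Measured instead as a peak within 20 kb of the hairpin, over 3049 microRNA genes of GENCODE, the share was 34.5% in RS4;11, 36.5% in THP-1 and 27.5% in both, with 6.99% in RS4;11 cells only and 8.99% in THP-1 cells only. By that measure too, 7 members had a peak in each line. The 10 genes were thus less often listed than symbols at large, but near the share of microRNA symbols. They were more often near a peak than microRNA genes at large, with no test of any of these. ChIP of bulk cells cannot tell apart a mark in fewer cells and less of it in each cell.

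Nearly all of these peaks lay beside the microRNA and not over it. The files keep a peak only when some transcript lies within 20 kb of it, so each distance is to the nearest peak listed for any gene. Of 13 peaks listed for the members in RS4;11 and 19 in THP-1 cells, the only 1 that covered its microRNA was the MIR155HG peak of RS4;11 cells. The median distance from the microRNA to the nearest peak was 11288 bp in RS4;11 cells (0 to 267547 bp) and 12172 bp in THP-1 cells (357 to 175718 bp). Over the 3049 microRNA genes the medians were 45960 and 40038 bp, and 4.9% and 5.2% of these genes lay in a peak.

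**Figure D2:**
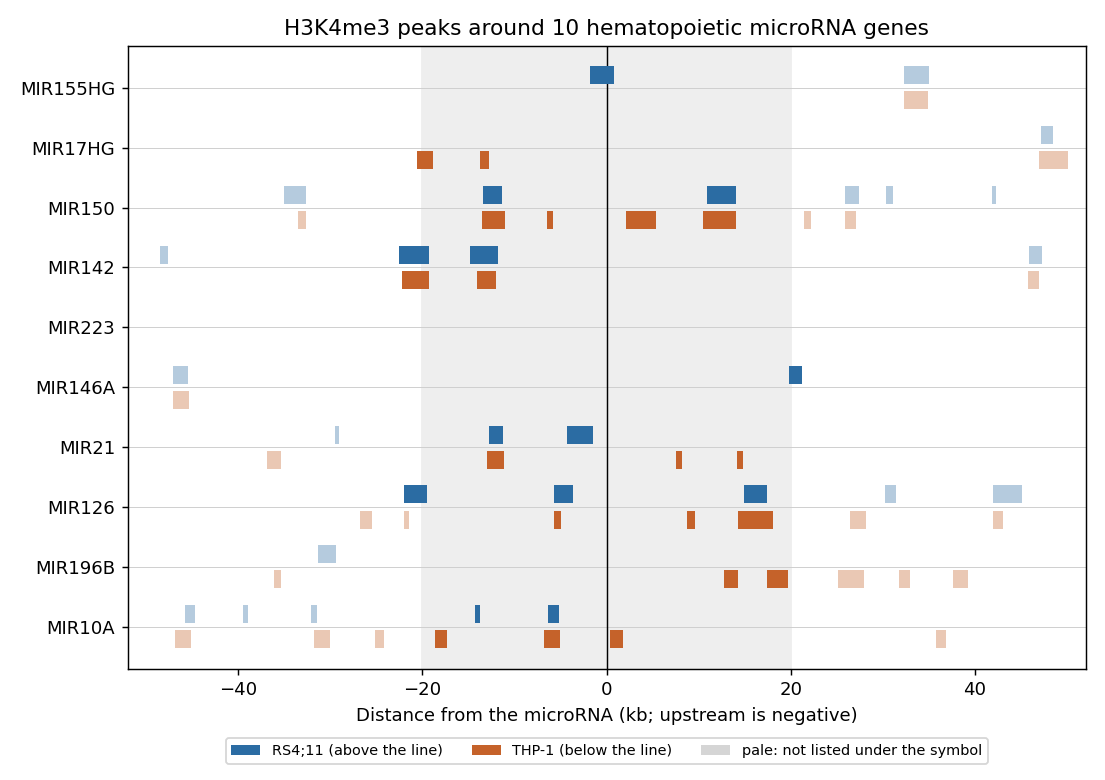
Position of H3K4me3 peaks (bars, to scale) along 50 kb to each side of each microRNA, in kb in the direction of transcription, with RS4;11 above and THP-1 below each row's line. Dark bars are listed under the microRNA's symbol, pale bars are not, and the grey band marks 20 kb. The only bar across 0 is the RS4;11 peak over MIR155HG, and the MIR223 row is empty.

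MIR155HG is the host transcript of miR-155, which is needed for germinal center responses and is abundant in several B-cell lymphomas. RS4;11 cells had 1 peak, chr21:26944542-26947109 (GRCh37, as all coordinates here), 2568 bp wide and at least as wide as 78.8% of the peaks in its file. It covered miR-155-5p, which matched chr21:26946295-26946318 on the plus strand, and carried both the exon and the intron flag. THP-1 cells had no peak here, and their nearest lay 32327 bp downstream, listed under MRPL39. The RS4;11 peak lay in the gene's 3′ part, 10085 bp from the 5′ end of MIR155HG at 26934457, and no peak of either line covered that end.

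The peak had the lowest GC content of the 13 RS4;11 peaks, 32.8%, and 0.25 of the CpG number that its base composition predicts. The reference sequence inside it is shown because, among the 10 members, it is the only stretch where the mark and a mature microRNA coincide, chr21:26946235-26946378, plus strand, with the 24 bases of miR-155-5p in capitals.
miR-155 stretch: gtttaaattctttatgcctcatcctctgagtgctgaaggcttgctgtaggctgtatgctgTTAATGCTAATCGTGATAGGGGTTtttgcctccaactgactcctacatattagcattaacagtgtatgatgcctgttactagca

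MIR17HG hosts the cluster that starts with miR-17, an oncogenic set of 6 hairpins that represses pro-apoptotic genes and is amplified in lymphomas. The cluster spans chr13:92002859-92003645, 2918 bp from the host's 5′ end. Only THP-1 cells had listed peaks, chr13:91982679-91984372 (1694 bp) and chr13:91989464-91990434 (971 bp), which lay 18487 and 12425 bp upstream of the first hairpin. Both lay upstream of the host as well, the nearer one 9507 bp from its 5′ end, and both were AT-rich, with a GC content of 38.3% and 32.9%. The nearest RS4;11 peak lay 46725 bp downstream, in the neighbouring GPC5 locus. MIR17, MIR18A, MIR19A, MIR20A, MIR19B1 and MIR92A1 share these 2 peaks, so they are not separate observations.

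MIR150, a microRNA of mature lymphocytes that represses MYB, lies at chr19:50004042-50004125 on the minus strand, inside no other gene of GENCODE. RS4;11 cells had 2 peaks and THP-1 cells had 4, with summed widths of 5270 and 10016 bp. The lines shared the peak at the start of RPL13A, a large-subunit ribosomal protein gene, which lay 10823 bp downstream of the hairpin in RS4;11 and 10438 bp in THP-1 cells and overlapped over 3194 bp. They also shared the peak at the start of FCGRT, the neonatal Fc receptor gene, 11332 and 10998 bp upstream.

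The other 2 THP-1 peaks had no overlapping RS4;11 peak. The narrower of them was chr19:50009859-50010550, 692 bp wide and 5734 bp upstream, and it held a transcript start of FCGRT. None of the 6 peaks touched MIR150.

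MIR142, which is expressed throughout the blood lineages, lies at chr17:56408593-56408679 on the minus strand, 1202 bp from the 5′ end of its host MIR142HG. Each line had 2 peaks, and each overlapped its counterpart in the other line. The nearer peak was 3029 bp wide in RS4;11 and 2103 bp in THP-1 cells, 11754 and 11920 bp upstream, and the THP-1 peak lay wholly inside the RS4;11 one. It touched an exon of SUPT4H1, a transcription elongation factor gene, held no transcript start, and had 0.14 and 0.12 of the predicted CpG number. The farther peak, 3243 and 2996 bp wide, held the SUPT4H1 start, and 2964 bp were common to both lines. The 5′ end of MIR142HG was 10552 bp from the nearest peak in RS4;11 and 10718 bp in THP-1 cells.

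MIR223, the granulocyte and monocyte microRNA that CEBPA and PU.1 are known to activate, lies at chrX:65238712-65238821. It was listed in no file. The nearest H3K4me3 peak was 267547 bp upstream in RS4;11 cells, 772 bp wide and listed under MSN, and 175718 bp downstream in THP-1 cells, 579 bp wide and listed under HEPH. These were the longest distances of the 10 genes in each line.

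MIR146A, an NF-κB-induced microRNA that dampens signalling through TRAF6 and IRAK1, lies at chr5:159912359-159912457 in MIR3142HG. RS4;11 cells had 1 peak, chr5:159932266-159933654, 1389 bp wide, 19809 bp downstream and just inside the 20 kb limit. No other symbol was listed for it. THP-1 cells had none, and their nearest was 45339 bp upstream at PTTG1 and SLU7. The 5′ end of MIR3142HG lay 28288 bp from the nearest RS4;11 peak and 28238 bp from the nearest THP-1 peak.

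MIR21, which is raised in many cancers and targets PDCD4, lies at chr17:57918627-57918698 at the end of VMP1, an autophagy gene that the files call TMEM49. The 5′ end of VMP1, 133612 bp from MIR21, lay in a peak in both lines. Nearer to MIR21, the lines shared a peak in an intron of VMP1, 11166 bp upstream of MIR21 in RS4;11 and 11119 bp in THP-1 cells, 1607 and 1809 bp wide. A second RS4;11 peak, chr17:57914380-57917213, was 2834 bp wide, ended 1414 bp before the hairpin, touched an exon of VMP1 and held the start of a VMP1 transcript. The nearest THP-1 peak was 6872 bp away from it. THP-1 cells instead had peaks of 639 and 661 bp, 7515 and 14100 bp downstream and past the end of the gene. Summed widths were 4441 bp in RS4;11 and 3109 bp in THP-1 cells.

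The center of the shared peak and that of the RS4;11 peak are set side by side because they differ in CpG content, with 1 and 5 CpG in 200 bases and a GC content of 37.5% and 47.5%. They are chr17:57906558-57906757 and chr17:57915696-57915895, plus strand, with each CpG in capitals.
MIR21 shared: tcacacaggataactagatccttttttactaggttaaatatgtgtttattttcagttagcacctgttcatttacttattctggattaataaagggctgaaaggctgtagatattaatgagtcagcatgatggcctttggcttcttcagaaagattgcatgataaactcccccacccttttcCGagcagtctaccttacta
MIR21 RS4;11 only: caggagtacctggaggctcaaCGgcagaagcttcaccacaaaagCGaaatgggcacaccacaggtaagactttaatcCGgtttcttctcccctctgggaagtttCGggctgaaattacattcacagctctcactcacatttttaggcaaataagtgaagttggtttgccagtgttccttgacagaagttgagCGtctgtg

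MIR126, a microRNA of endothelium and hematopoietic stem cells, lies at chr9:139565054-139565138 in EGFL7, which encodes a secreted factor of endothelial cells. Each line had 3 peaks, with summed widths of 7043 bp in RS4;11 and 5478 bp in THP-1 cells. The order depends on the 20 kb limit, since a THP-1 peak overlapping the farthest upstream RS4;11 one lay just beyond it. Over the peaks listed for the host EGFL7 the sums were 7043 bp in RS4;11 and 7381 bp in THP-1 cells. The nearest was chr9:139559419-139561423 in RS4;11 cells, 2005 bp wide and 3631 bp upstream, compared to chr9:139559369-139560168 in THP-1 cells, 800 bp wide and 4886 bp upstream. The RS4;11 peak held a start of an EGFL7 transcript and had the highest GC content of all member peaks, 73.8%, whereas the THP-1 peak shared 750 bp with it and held no start. Both lines marked the start of AGPAT2, a lipid synthesis gene downstream, with 2503 and 3782 bp. The remaining peaks were 2535 bp wide and 19462 bp upstream in RS4;11 cells, and 896 bp wide and 8652 bp downstream in THP-1 cells.

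The center of the EGFL7 stretch shared by the lines, chr9:139559693-139559892 on the plus strand, is shown as the mark nearest to MIR126. It holds 12 CpG, in capitals, at 67.5% GC.
MIR126 shared: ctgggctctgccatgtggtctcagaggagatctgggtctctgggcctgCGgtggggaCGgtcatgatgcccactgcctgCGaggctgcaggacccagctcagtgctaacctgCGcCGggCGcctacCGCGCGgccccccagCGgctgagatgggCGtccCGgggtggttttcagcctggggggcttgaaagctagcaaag

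MIR196B lies between HOXA9 and HOXA10 at chr7:27209099-27209182 on the minus strand, within HOXA10-AS and a long HOXA9 transcript of GENCODE, and is known to be active with these genes in MLL-rearranged leukemia. Only THP-1 cells had listed peaks, chr7:27189449-27191716 (2268 bp) and chr7:27194879-27196397 (1519 bp). They lay 17383 and 12702 bp downstream, over the starts of HOXA6 and HOXA7. The same 2 peaks were those listed for HOXA10 in THP-1 cells, and they made up 3787 of the 6633 bp listed for HOXA9, which had 1 further peak of 2846 bp. None of these peaks touched an exon of HOXA9 or HOXA10. The nearest RS4;11 peak, 1956 bp wide, lay 29367 bp upstream, toward HOXA11 and HOXA13, and was listed for HOXA10 but not for HOXA9.

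MIR10A, which is known to repress HOX transcripts, lies next to HOXB4 at chr17:46657200-46657309 on the minus strand, within transcripts of HOXB3 and HOXB-AS3. RS4;11 cells had 2 peaks of 1731 bp in all, and THP-1 cells 3 of 4341 bp. The nearest THP-1 peak, chr17:46655470-46656843, lay 357 bp downstream, touched an exon of HOXB4 and held transcript starts of HOXB3 and HOXB4. No RS4;11 peak overlapped it, the nearest being 5615 bp away. Both lines had the peak 5149 bp upstream in RS4;11 and 5048 bp in THP-1 cells, which was 1170 bp wide in RS4;11 cells and lay wholly inside the 1652 bp of THP-1 cells. Farther upstream, RS4;11 cells had 561 bp at the start of HOXB5 and THP-1 cells 1315 bp over an exon of HOXB6.

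**Figure D3:**
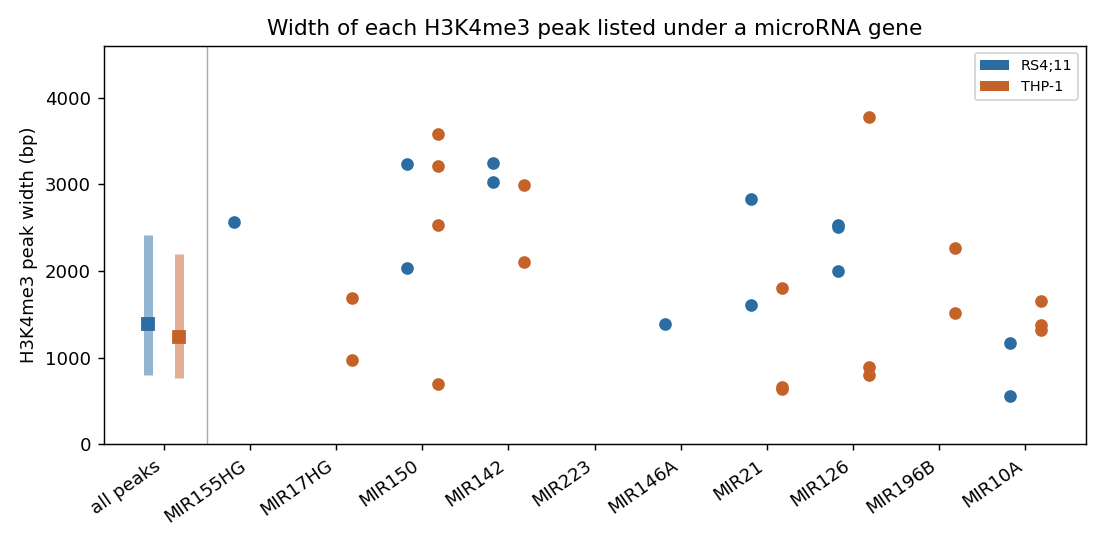
Width in bp (y axis) of each H3K4me3 peak listed under a microRNA gene (points), with the median (square) and quartiles (bar) of all peaks of the file at the left. Member peaks run from 561 to 3243 bp in RS4;11 and from 639 to 3782 bp in THP-1 cells.

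Among themselves, the listed peaks had a median width of 2503 bp in RS4;11 and 1652 bp in THP-1 cells, above the medians of their files. Transcript starts of protein-coding or lncRNA genes lay in 8 of the 13 RS4;11 and 9 of the 19 THP-1 peaks, compared to 46.1% and 47.8% of all peaks. Observed over predicted CpG was 0.61 and 0.74 in the MIR196B peaks and 0.49 to 0.87 in the MIR10A peaks, compared to 0.25 at MIR155HG, 0.2 at MIR146A, 0.23 and 0.08 at MIR17HG and 0.19 to 0.31 at MIR21. It varied within the other loci, from 0.12 to 0.55 at MIR142, from 0.38 to 0.58 at MIR150 and from 0.39 to 0.7 at MIR126. The median over the members was 0.45 in RS4;11 and 0.5 in THP-1 cells, and over all peaks 0.39 and 0.47.

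Of the RS4;11 member peaks, 9 of 13 (69.2%) overlapped a THP-1 peak by at least 1 bp, and of the THP-1 member peaks 8 of 19 (42.1%) overlapped an RS4;11 peak. For all peaks the shares were 55.8% and 51.8%. Every MIR142 peak, both RS4;11 peaks of MIR150 and all 3 RS4;11 peaks of MIR126 had a partner. None had at MIR155HG, MIR146A, MIR17HG or MIR196B, which largely restates that these genes were listed in 1 line only.

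**Figure D4:**
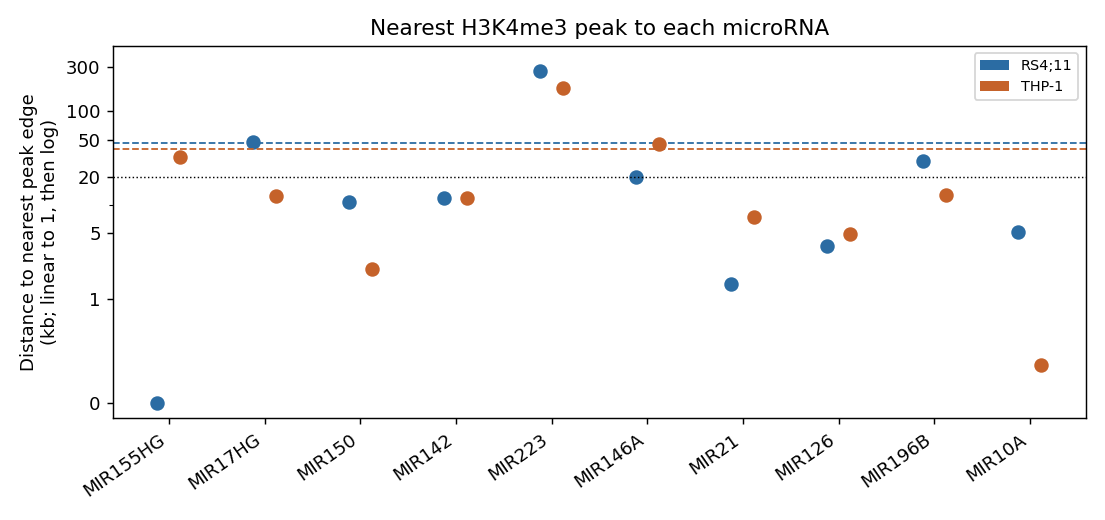
Distance in kb from each microRNA to the nearest edge of an H3K4me3 peak (y axis, linear to 1 kb and logarithmic above) in each line. Dashed lines are the medians over 3049 microRNA genes and the dotted line is 20 kb. MIR223 is farthest from a peak in both lines, and MIR155HG in RS4;11 cells is at 0.

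WDR5 was listed for 0 of the 10 genes in RS4;11 and 0 in THP-1 cells, against 4.7% and 1.7% of all symbols (873 and 316). At shares this low, a count of 0 among 10 genes is near the background. The shortest distances to a WDR5 peak were 126688 bp downstream of MIR21 in THP-1 cells, at RPS6KB1 and RNFT1, and 420179 bp upstream of MIR126 in RS4;11 cells, at QSOX2. With no peak height given, WDR5 below the calling threshold could not be measured.

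Of 19 genes that process or act with microRNAs, 18 were listed in RS4;11 and 18 in THP-1 cells, 17 of them in both, which is near the share of all symbols (82.2% in both). Exonic peaks were present for 14 and 12. The wider exonic peak was in RS4;11 for 11 genes and in THP-1 for 4. No share over all genes was computed for either count. All H3K4me3 peaks together were also wider in RS4;11 cells (median 1391 against 1241 bp), so neither count is shown to be particular to these genes. DROSHA, which cuts the primary transcript, had exonic peaks of 3485 bp in RS4;11 and 4166 bp in THP-1 cells. Its partner DGCR8 had 2943 and 3030 bp, and the exporter XPO5 had 4053 and 3648 bp. LIN28B, which blocks let-7 maturation, was listed in THP-1 cells only.

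Of 8 paralogs of the members, 8 were listed in THP-1 cells and 7 in RS4;11 cells, against 93.9% and 87.9% of all symbols, the exception being MIR10B in the HOXD cluster, with 3 peaks of 2444 bp in all in THP-1 cells. MIR196A1 had 1721 bp in RS4;11 and 3134 bp in THP-1 cells, and MIR196A2 had 7909 and 6568 bp. For MIR146B, paralog of the gene listed in RS4;11 cells only, the values were 10069 and 11316 bp. No paralog had an exonic peak in either line by the exon flag. By the same flag, 5 of 36 other genes for microRNAs of blood cells had one in RS4;11 and 3 in THP-1 cells. By coordinates, which is another measure, 4.9% and 5.2% of 3049 microRNA genes lay in a peak. No paralog was listed for WDR5, against 4.7% and 1.7% of all symbols. Counts of 0 among 8 genes are not shown to differ from these shares. MIR106B, MIR25 and MIR93 share their peaks, so the 8 are not separate loci.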

How the data were processed

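H3K4me3 and WDR5 ChIP-seq was done in 1 sample each of RS4;11 and THP-1 cells. According to the methods, the authors used Eland to align reads to hg19 with at most 2 mismatches, kept those with a unique alignment, and called peaks with MACS at default parameters. The submitters' processing notes name CASAVA 1.7 and 1.8.2. The sample labels describe sonicated nuclei, and the methods give micrococcal nuclease for H3K4me3. Use of an input control and the MACS version are not given in the sources used here. The deposited files hold peak positions, transcripts within 20 kb and yes or no flags, so depth and precision are unknown.

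Lines were reduced to distinct peaks, and positions were checked against GRCh37. No peak passed a chromosome end, and 37 RS4;11 and 35 THP-1 H3K4me3 peaks lay on sequences outside the reference and were left out of base composition. Hairpins and mature strands of RefSeq (GRCh38.p14 table) were placed on GRCh37 by exact match, MIR150 by GENCODE 44. The miR-155 position is that of the mature strand. Transcript starts are those of any protein-coding or lncRNA transcript of GENCODE 44, and host 5′ ends are from RefSeq. Width is end minus start plus 1. Named genes are all members, the symbols sharing their peaks, and up to 4 genes of each list in a set order, plus markers. The members and lists were chosen with earlier results of these data known. With 1 sample a group no test was run. The interval functions were tested on simulated positions. Alternatives changed how peaks were tied to genes, the distance, the width minimum, the overlap and the background. Python 3.11.15, numpy 2.4.6 and matplotlib 3.10.9 were used. A few neighbouring genes and 1 sequence are not reported here.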

Additional observations from a re-analysis of the deposited data

How the results depend on the processing

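The count of members with H3K4me3 depended on the distance allowed. Peaks were also taken by coordinates around the microRNA, or around the whole host for MIR155HG and MIR17HG. Within 5 kb the count was 4 in RS4;11, 4 in THP-1 and 2 in both. MIR17HG counted there in each line through a peak past the end of its host, 46725 bp downstream of the cluster in RS4;11 cells. Within 2 kb of the hairpin's 5′ end, or the host's for MIR155HG and MIR17HG, the count was 1 (MIR21), 1 (MIR10A) and 0. With the exon or intron flag required it was 1 (MIR155HG), 0 and 0. By coordinates within 20 kb it was 8, 7 and 6, adding MIR17HG in RS4;11 cells through that same peak. With peaks of at least 500 bp it was 7, 7 and 5, a minimum that removed nothing, as the narrowest listed peaks were 561 and 639 bp. The median summed width over the 10 genes was 2149 bp in RS4;11 and 3448 bp in THP-1 cells. By coordinates within 20 kb it was 2149 and 4064 bp, and within 5 kb it was 0 in each line. For the widest peak alone the median was 1962 bp in RS4;11 and 1751 bp in THP-1 cells, so the order of the lines reversed. The background share over microRNA symbols was 77%, 81.3% and 60.4% in RS4;11, THP-1 and both lines, and over all genes of GENCODE by coordinates 49.1%, 52.9% and 43.7%. WDR5 counts were 0 under every alternative run. That was fixed in advance, since none reached beyond 20 kb and the nearest WDR5 peak lay 126688 bp from a member. A count or width was taken to hold where it was within a factor of 1.5 of the value first reported. A background share was held to a narrower rule, the Wilson confidence interval of the share over all symbols. All alternative background shares fell outside it and count as moved. In all, 23 values of the comparisons held and 18 moved. Those that held include the WDR5 counts and the counts with the 500 bp minimum, which could not have moved, so the tally is no measure of robustness. Of the widths of single genes, 19 held and 23 moved. A stricter peak threshold could not be applied, as the files give no peak strength, and no replicate could be left out. No paired analysis was possible because each antibody and cell line had 1 sample.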

Other observations

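Of 36 other genes for microRNAs of blood cells, 24 were listed for H3K4me3 in RS4;11 cells, 21 in THP-1 cells, 17 in both and 8 in neither. None was listed for WDR5, against 4.7% of all symbols in RS4;11 and 1.7% in THP-1 cells. Of all microRNA symbols in the files, 77%, 81.3% and 60.4% were listed in RS4;11, THP-1 and both. These shares leave out DLEU2, 1 of the 36 genes, which is not a microRNA symbol and was listed in both lines. MIR221 and MIR222, which repress KIT and CDKN1B, shared 1 peak of 1435 bp in RS4;11 cells and had none in THP-1 cells. MIR29A and MIR29B1, which target DNA methyltransferases, shared 1 peak of 1178 bp in THP-1 cells and had none in RS4;11 cells. The unlisted genes included the 4 MIR181 genes examined, MIR181A1, MIR181B1, MIR181A2 and MIR181B2, whose products tune lymphocyte receptor signalling. Genes of 1 cluster share their peaks, so these counts are not of independent loci.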
